A study of Saccharomyces cerevisiae with 49 samples.

Results

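The comparison set 3 middle samples of a transcript pulse, taken at phase angles of 385.00, 392.66 and 400.31 degrees, against the 3 early samples that preceded them, at 362.04, 369.70 and 377.35 degrees. These are 6 of the 49 samples of the series, set by the phase angle and time in the labels. The middle samples were drawn at 15.50, 15.58 and 15.67 h of the labels' clock and the early samples at 15.25, 15.33 and 15.42 h. All came from a continuous culture of Saccharomyces cerevisiae CEN.PK113-7D, a MATa laboratory strain, which oscillated with a period of about 4 h and was sampled every 5 min. No allele, drug or other agent separates the groups, so time within the cycle is the only difference in condition the labels give. The array numbers also differ, with 17, 36 and 24 for the middle samples and 29, 32 and 14 for the early samples. Whether they mark a batch is not stated. Both groups shared a glucose medium with ammonium sulfate and yeast extract, held at constant pH and temperature under continuous feed and constant aeration. The labels do not say which event defines phase 0, and angles above 360 degrees continue into the next turn of the cycle. RNA of each sample was measured on 1 Affymetrix Yeast Genome 2.0 array. The 3 samples of a group are successive draws from the same vessel and not separate cultures, so p-values measure only the spread between these samples. A sample holds RNA of the whole culture, so fewer cells that carry a transcript and less of it per cell cannot be told apart.

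Dense continuous cultures of budding yeast can synchronise their metabolism without any outside signal, and pass in turn through periods of strong and weak respiration. In each turn transcripts for growth, such as those for making ribosomes, come up together, while transcripts for storage carbohydrates, fat oxidation and stress protection go down. A share of the cells enters the division cycle in each turn, with the G1/S genes switched on by the transcription factors SBF (Swi4 with Swi6) and MBF (Mbp1 with Swi6). These statements are background and not results of the comparison.

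In the middle samples, transcripts for starting the division cycle and copying DNA were higher than in the early samples, by 1.63-fold at the median of 72 DNA replication and MBF genes and by 1.47-fold at the median of 41 G1 cyclin and SBF genes. Transcripts for amino acid uptake and for ribosome assembly were lower: 24 amino acid and ammonium permease genes were 1.46-fold lower at the median and 145 ribosome biogenesis genes 1.53-fold lower. The ribosome biogenesis difference leaned on the middle sample at 400.31 degrees, without which its log2 median was -0.30 in place of -0.61. The steepest individual differences were losses, 11.8-fold for AQR1, the gene of a plasma membrane exporter, and 11.2-fold for POT1, the peroxisomal thiolase. The medians of 18 citric acid cycle genes and 24 storage carbohydrate genes were higher, at log2 differences of 0.36 and 0.60, and both moved with the samples kept. Levels are given as scaled signal, the deposited probe-set intensity after each array was brought to the same median. Differences are log2 middle minus log2 early, so a positive value means higher in the middle samples, and SE is the standard error of that difference from limma over 3 against 3 samples.

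The number of genes that passed a test depended on the spread used. In limma, which compares group means with a spread moderated across all probe sets, 1 of 5470 probe sets rose at an adjusted p under 0.05 (0.0183%) and none fell (0%), while 1264 had an unadjusted p under 0.05, 693 higher and 571 lower. That 1 was YDR182W-A, an open reading frame without a gene name, with signals of 131, 134 and 141 in the middle samples, against 47.7, 44.6 and 48.3 in the early samples. Its groups lay far apart at a low level (difference 1.53, SE 0.13, limma adjusted p = 0.0488). The next adjusted p, 0.0656, was shared by 121 probe sets, and 473 lay under 0.1, of which 246 were higher and 227 lower. The spread inside each group includes the change that took place during its 10 min, and the median SE was 0.202 with the 6 samples. With the spread estimated from all 49 samples in groups of 3 successive samples, the median SE was 0.118 and 1444 probe sets rose (26.4%) and 1123 fell (20.5%) at the same threshold. Without the early sample at 377.35 degrees, 264 probe sets passed in the 5 remaining samples, 125 higher and 139 lower. Most of the 49 samples lie in quieter parts of the cycle, so the all-sample spread can understate that of the 6 samples. Below, "rose" and "fell" stand only for that all-sample limma fit and are marked as such, and all other statements are values.

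The groups did not overlap for 1527 probe sets: 889 were higher in all 3 middle samples than in any early sample (16.3%) and 638 were lower (11.7%). Of these, 120 were higher by at least 2-fold (2.19%) and 169 lower by at least 2-fold (3.09%), and 119 and 163 of them also passed in the all-sample fit. Scaling the arrays on the median of the whole table, with its other-species probe sets, gave 79 and 251 in place of 120 and 169. Over all probe sets the median difference was 0.04, and with whole-table scaling it was -0.12. Counts of gene lists below compare with these 16.3% and 11.7% without overlap, and with 26.4% and 20.5% in the all-sample fit.

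The 6 samples do not form a pair of quiet plateaus. Counting probe sets that moved at least 2-fold between successive samples, the largest step of the series lay inside the early group, with 418 probe sets between 362.04 and 369.70 degrees, 327 of them downward. The step from 377.35 to 385.00 degrees, which separates the groups, moved 146, with 79 up and 67 down, and the steps inside the middle group moved 87 and 61. Elsewhere in the series, in 37 steps outside the 12 samples from 338.50 to 423.27 degrees, the count ran from 17 to 141 with a median of 33. The median absolute difference between the samples at 362.04 and 377.35 degrees, both early, was 0.46 on the log2 scale, against 0.22 between the neighbours 377.35 and 385.00 degrees on either side of the boundary. The sample at 362.04 degrees was also nearer to the last middle sample, at 0.35, than to the last early one. Extremes of the cycle clustered here: 1733 probe sets had their highest signal of all 49 samples in the early samples (31.7%) and 1802 their lowest (32.9%), against 548 (10%) and 751 (13.7%) in the middle samples, where 3 of 49 samples make up 6.12%.

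**Figure D1:**
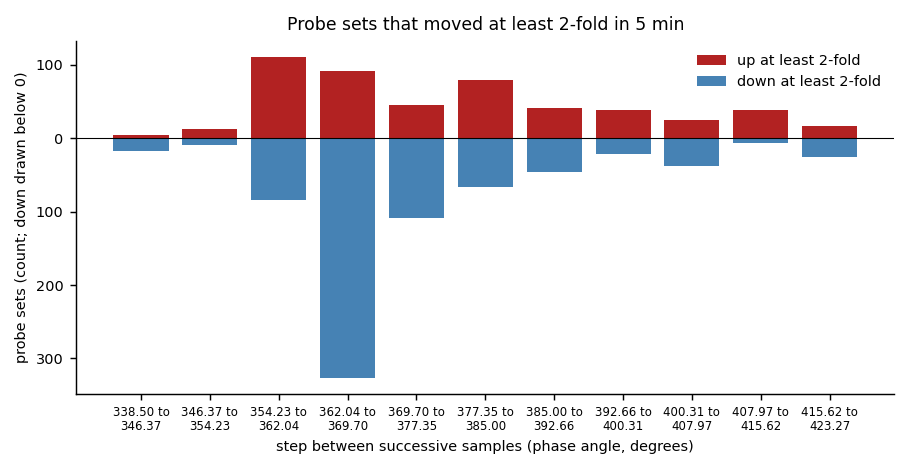
Number of probe sets (vertical axis) that moved at least 2-fold up (red) or down (blue, drawn below 0) between successive samples 5 min apart, for the steps from 338.50 to 423.27 degrees. The tallest bar is the step from 362.04 to 369.70 degrees inside the early samples, with 91 up and 327 down, and the step that separates the groups, from 377.35 to 385.00 degrees, has 79 up and 67 down.

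Array brightness did not separate the groups: the median deposited signal was 1455.5, 1832.8 and 2110.2 on the middle arrays, against 2064.6, 1829.8 and 1569.2 on the early arrays (exact permutation test, two-sided, p = 1, where 0.1 is the smallest p for 3 against 3). The log2 ratio of 3' to 5' control signals, a sign of RNA quality, was 0.37, 0.45 and 0.59 for TDH1 on the middle arrays, against 0.06, 0.18 and 0.30 on the early arrays. These TDH1 groups did not overlap (exact permutation p = 0.1, adjusted p = 0.4 over 4 control transcripts), and the ratios of ACT1, SPT15 and RIP1 overlapped. The part of this ratio in the results was not tested. The 7 a-specific markers expected of a MATa strain summed to 59409 to 64014 in the middle samples and 30066 to 56278 in the early samples. The 4 alpha-specific markers summed to 3004 to 3907 and 3049 to 4315, and 14 meiosis and sporulation markers to 2556 to 3468 and 4332 to 6014, in middle and early samples in that order. Of these 14, 2 were lower and 1 higher without overlap. The mean of SPS100, a marker among them, was 705 in the middle and 2617 in the early samples, most of the change in that sum.

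The 289 probe sets that differed by at least 2-fold without overlap followed a few courses when the 3 samples before, at 338.50 to 354.23 degrees, were added. These courses were sorted after the values were seen, by whether the early mean was at least 2-fold above or below the mean of the samples before. Among the 169 lower probe sets, 41 had already dropped at least 2-fold by the early samples and went on down (a decline), 73 had gone up at least 2-fold and came back (a burst), and 55 had held within 2-fold. Among the 120 higher ones, 29 had dropped at least 2-fold and came back (a dip and return), 88 had held within 2-fold and 3 had already gone up. Of the 41 declining probe sets, 37 reached their lowest signal of all 49 samples in the middle samples. Of the 73 burst probe sets, 71 had their highest signal of the series in the early samples, and 28 of the 29 with a dip had their lowest there. The class rules already put these samples above or below the samples compared with them, so such counts are in part built in.

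**Figure D2:**
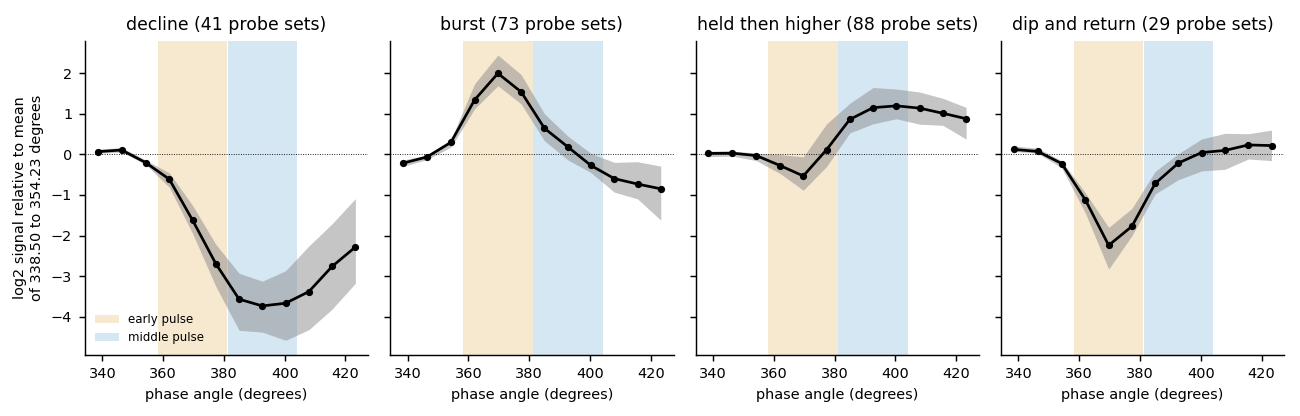
Median course (line) and quartiles (grey band) of 4 classes of probe sets that differed at least 2-fold without overlap, as log2 signal relative to the mean of the samples at 338.50 to 354.23 degrees, against phase angle. Orange shading marks the early samples and blue the middle samples. At 369.70 degrees the burst class stood at a median of 2.00 and the dip class at -2.24, while the decline class went on down to -3.74 at 392.66 degrees.

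Fat oxidation enzymes held some of the largest single losses, while the list of which they are part was mixed. Of 50 genes for peroxisomes and fatty acid oxidation, 10 were lower and 3 higher without overlap (20% and 6%, against 11.7% and 16.3% of all probe sets). Of the 10, 6 were lower by at least 2-fold, and in the all-sample fit 15 fell and 9 rose. The list median was -0.14, against 0.03 for all 5428 genes. List sizes count members with a tested probe set, and 15 lists were short of 1 to 3 genes, 25 in all. POT1, which cuts the shortened fatty acid chain in the last step of beta-oxidation, had signals of 164, 134 and 122 in the middle samples, against 3749, 1758 and 566 in the early samples. No middle value reached the lowest early value, and the early values themselves spanned most of the loss (difference -3.48, SE 0.62, limma adjusted p = 0.0656). FOX2, the enzyme of the middle steps, had 533, 623 and 513 in the middle samples, against 7656, 3798 and 1286 in the early samples (difference -2.59, SE 0.59). POX1, the acyl-CoA oxidase of the first step, had 257, 319.9 and 282, against 5596, 1136 and 420.5 in the early samples (difference -2.28, SE 0.84). In these 3 genes the last early sample was the lowest of its group and the middle samples lay below it. CAT2, the carnitine acetyltransferase that passes acetyl units on, had 576, 581 and 629 in the middle samples, against 4932, 2347 and 921 in the early ones. The peroxisomal catalase gene CTA1 had 646, 613 and 369, against 4207, 948 and 799, and most of its loss lay between 362.04 and 369.70 degrees. Peroxins, which build the organelle and bring in its enzymes, stood on both sides, with PEX29, PEX5 and PEX13 higher and PEX2, PEX6 and PEX21 lower without overlap.

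Stress genes behaved in more than 1 way. Of 48 general stress genes, 14 were lower and 1 higher without overlap (29.2% and 2.1%, against 11.7% and 16.3% of all probe sets). Their median was -0.29, and in the all-sample fit 22 fell and 7 rose. The median ran from -0.15 without the first early sample to -0.52 without the last early sample. GRE1, a hydrophilin made on osmotic stress and drying, had 388, 288 and 256 in the middle samples, against 8370.2, 3489.6 and 1243 in the early samples (difference -3.44, SE 0.63, limma adjusted p = 0.0656). SIP18, a related hydrophilin that protects dried cells, had 1256, 704 and 731, against 13557, 7584 and 2893 (difference -2.95, SE 0.55). Both genes had less signal at each successive early sample and were below all of these in the middle samples. HSP12, a membrane-protecting small heat shock protein, held its level through the early samples, with 6439.7, 4513 and 4418 in the middle samples against 15029, 15466 and 12735 in the early samples. Its early values were close together, so its difference of -1.51 had a small SE of 0.20 (limma adjusted p = 0.0656). The cytosolic catalase gene CTT1 had 238, 243 and 281 in the middle samples, against 2113, 603 and 328, and the early values were themselves far apart. TMA10, a ribosome-associated stress protein, was the 1 member higher without overlap, with 7572, 10899 and 14829 in the middle samples against 7247, 2767 and 5425 in the early samples. The stationary phase gene SPG4 had 1654, 994 and 1221, against 13225, 8963 and 3614 (difference -2.58, SE 0.47).

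Several of the largest losses were in the lesser member of an enzyme pair. These pairs were chosen after their values were seen, and only differences are set side by side, since signals of different probe sets do not share a scale. The mitochondrial citrate synthase gene CIT3 differed by -2.91, with 283, 266 and 258.9 in the middle samples against 5168, 2383 and 672 in the early samples, while the main citrate synthase gene CIT1 differed by 0.57. CIT3 was lower in every middle sample, and the CIT1 groups overlapped. TKL2 and NQM1, the second transketolase and transaldolase of the pentose phosphate pathway, differed by -2.50 and -2.28, against -0.03 for TKL1 and -0.13 for TAL1. HEF3, the second gene for translation elongation factor 3, had 627, 406 and 394 in the middle samples against 5724, 3152 and 1124 in the early samples, a difference of -2.55, while YEF3, the main gene, differed by 0.07. PMA2, a second plasma membrane proton pump, differed by -2.22 (SE 0.34), against -0.02 for PMA1 (SE 0.20). GND2 and GND1, both 6-phosphogluconate dehydrogenases, differed by -1.96 and -0.24. OYE3, an NADPH oxidoreductase, had 523, 272 and 339 in the middle samples, against 3884, 2889 and 1266, a difference of -2.73. Its partner OYE2 also lay lower without overlap, by -0.77, and had its highest signal of the series in the last early sample. Not all pairs parted this way. PGM2 and PGM1, the phosphoglucomutases, differed by 1.05 and -0.08, and the PGM2 groups overlapped. SOL4 and SOL3, which make 6-phosphogluconolactonase, differed by -0.48 and -0.67, and the pyruvate kinase genes PYK2 and CDC19 by 0.27 and 0.02.

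Single genes for breaking down aromatic amino acids and using acetate had the same course. ARO9, the aromatic aminotransferase that starts breakdown, had 385, 309 and 205 in the middle samples, against 3811, 1955 and 818 in the early samples (difference -2.66, SE 0.54). ARO10, the decarboxylase of the next step, had 707, 641 and 728, against 4683, 2946 and 1233 (difference -1.90, SE 0.45). Both recovered soon, and ARO9 stood at 2637 at 423.27 degrees. Of 24 genes for acetate use, the glyoxylate cycle and gluconeogenesis, 4 were lower and none higher without overlap, and in the all-sample fit 8 fell and 3 rose. That is 16.7% lower, against 11.7% of all probe sets, and 9 of the 24 differences were above 0. Its median of -0.15 was 0.17 without the first early sample and 0.03 without the first middle sample. ADY2, an acetate transporter, had 569, 613.99 and 568 in the middle samples, against 6984, 1979 and 852, and ACS1, an acetyl-CoA synthetase, had 2073, 2213 and 2278, against 11262, 7891 and 3215.

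In a further group of genes the early mean was within 2-fold of the samples before, and the middle samples were lower. ADH2, the alcohol dehydrogenase that consumes ethanol, had 5923, 5027 and 3339.6 in the middle samples, against 13602, 15906 and 10945 in the early samples (difference -1.52, SE 0.26, limma adjusted p = 0.0656). PDC6, a minor pyruvate decarboxylase, had 4174, 2182 and 858, against 6172, 9149 and 7659, and its middle samples descended in time order. FDH1, formate dehydrogenase, had 2384, 1418 and 784, against 10381, 8738 and 5820.1 (difference -2.55, SE 0.42). CAR2, an enzyme of arginine breakdown, had 2392, 2448 and 1949.7 in the middle samples, against 5683, 6080.4 and 5065 in the early samples (difference -1.31, SE 0.16). CAR1, the arginase of the same pathway, did not part: 2490.3, 2730 and 2677, against 2632, 2256 and 2512. GDH3, a glutamate dehydrogenase, had 3423, 2785 and 2559.6, against 7648, 8034 and 6563 (difference -1.35, SE 0.17), while its partner GDH1 differed by -0.02. Of 35 redox defence genes, 17 were lower without overlap and none higher (48.6% lower, against 11.7% of all probe sets). Their median was -0.40, and in the all-sample fit 19 fell and 4 rose. AHP1, a thiol peroxidase, had 4296, 3702 and 4337 in the middle samples, against 10740, 11715 and 8880.1, with close values inside each group (difference -1.34, SE 0.17). TSA2, the less abundant cytosolic thioredoxin peroxidase, had 282, 188 and 130.4, against 1095, 875 and 470.1.

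**Figure D3:**
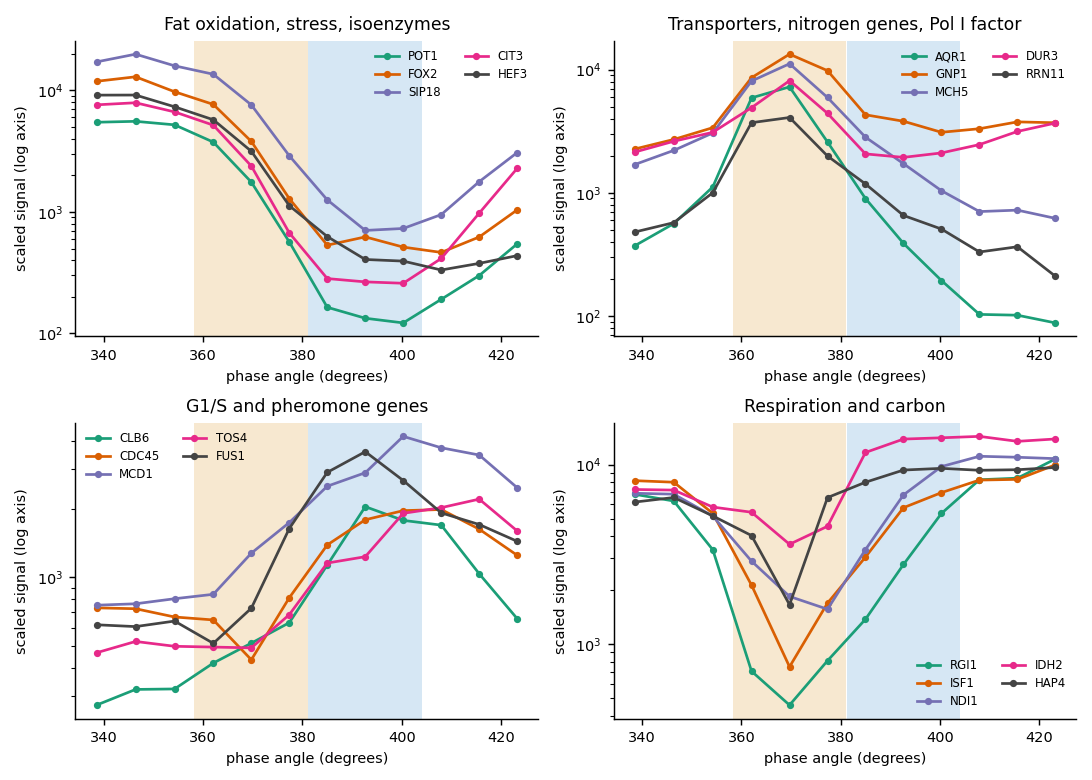
Scaled signal (log axis) of 20 genes in the 12 samples from 338.50 to 423.27 degrees, 1 point per sample, with the early samples shaded orange and the middle samples blue. POT1, FOX2, SIP18, CIT3 and HEF3 decline through the early samples and lie below them in the middle ones, AQR1, GNP1, MCH5, DUR3 and RRN11 peak at 369.70 degrees, the G1/S and pheromone genes are highest in the middle samples or just after, and RGI1, ISF1, IDH2 and HAP4 pass a low at 369.70 degrees, with NDI1 lowest at 377.35 degrees.

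The burst held transporters, nitrogen catabolism genes and factors for making ribosomes. AQR1, a plasma membrane exporter of amino acids and drugs, showed the largest difference of all tested genes: 898, 388 and 194 in the middle samples, against 5898, 7241 and 2585 in the early samples (difference -3.56, SE 0.61, limma adjusted p = 0.0656). Its signal was 1115 at 354.23 degrees, just before the early samples, and 87.8 at 423.27 degrees. MCH5, the riboflavin transporter, had 2828, 1723 and 1039 in the middle samples, against 8075, 11160 and 5937 (difference -2.24, SE 0.40). The zinc transporter gene ZRT1 had 1992, 1074 and 857, against 2469.7, 6294 and 5011, and the phosphate transporter gene PHO84 had 177, 264 and 182, against 393, 911 and 386. All 4 transporter genes were highest at 369.70 degrees and lower in every middle sample than in any early one.

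Of 24 amino acid and ammonium permease genes, 11 were lower without overlap and none higher (45.8% lower, against 11.7% of all probe sets). Of the 11, 7 were lower by at least 2-fold, as were 3.09% of all probe sets. In the all-sample fit 17 fell and none rose, where 20.5% of all probe sets fell and 26.4% rose. OPT1, an oligopeptide transporter, had 548, 368 and 258 in the middle samples, against 1472, 2456 and 1408 in the early samples (difference -2.20, SE 0.33). GNP1, a glutamine permease, had 4298, 3808 and 3098, against 8600.3, 13348 and 9809.5 (difference -1.49, SE 0.22, limma adjusted p = 0.0656). MUP1, the high-affinity methionine permease, had 4812, 3105 and 1915, against 8147, 11290 and 10856 (difference -1.71, SE 0.34). GNP1 settled at its middle level, with 3704 at 423.27 degrees, while MUP1 went on down to 698. TAT1, which carries tyrosine and branched-chain amino acids, had 124, 93.6 and 82.5 in the middle samples, against 464, 544 and 216. PTR2, the dipeptide transporter, had 1000.4, 1090.3 and 942, against 3112, 4541 and 2540.2. GAP1, the general amino acid permease, lay lower by a smaller step, with 7197, 8374 and 8361 in the middle samples against 11318, 13806 and 10534 in the early samples. Some permease genes overlapped between the groups: AGP1, a broad amino acid permease, had 8054, 9993 and 9119, against 8346, 12261 and 10310, and MEP2, an ammonium permease, had 12531, 12635 and 10871, against 10696, 14638 and 17238.

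The genes for taking up and breaking down allantoin and urea, nitrogen sources used when better ones are short, were the highest of the 6 samples at 369.70 degrees. DAL4, the allantoin permease, had 273, 238 and 141 in the middle samples, against 513, 1410.3 and 701 in the early samples (difference -1.93, SE 0.42). DUR3, the urea permease, had 2068, 1938 and 2106, against 4909.9, 8131 and 4414 (difference -1.46, SE 0.24). UGA4, which carries gamma-aminobutyrate, had 425, 316 and 216, against 737, 1261 and 739. All 3 permeases had a sharp high in the sample at 369.70 degrees, and every middle value was below every early one. DAL7, a malate synthase of allantoin breakdown, had 2326, 2074 and 1629 in the middle samples, against 3484, 6264 and 4766. DAL1, DAL2 and DAL3, the enzymes of successive steps, differed by -1.11, -0.98 and -0.68, each without overlap. DAL80, a repressor of these genes, had 483, 341 and 447, against 1266, 1423 and 580.3. These genes were chosen after their values were seen.

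Ribosome biogenesis genes lay lower together, on a slope that crossed both groups. Of 145 genes, 142 were lower in the middle mean, with a median of -0.61, and 73 fell and none rose in the all-sample fit. Yet only 5 were lower without overlap and none higher (3.4% lower, against 11.7% of all probe sets). The list median, relative to the samples before, was 0.96, 1.77 and 1.90 in the early samples in time order and 1.51, 0.93 and 0.36 in the middle samples, so the first early sample lay among the middle values. UTP5, part of the complex that processes the small subunit RNA, had 5578, 3652 and 2321 in the middle samples, against 6772, 10479 and 9571 in the early samples (difference -1.28, SE 0.34). NOG2, a GTPase of large subunit assembly, had 7877, 5692 and 3426, against 8263, 13581 and 12394. MAK16, a large subunit assembly factor, had the largest difference of the list at -1.29, but its groups overlapped: 3972, 1678 and 1169.5 in the middle samples, against 3766, 5776 and 5228 in the early samples (limma adjusted p = 0.151). NOP1, the methyltransferase of box C/D particles, overlapped too, with 15858, 13920 and 9705, against 10175, 15881 and 19495 (difference -0.19, SE 0.29). Leaving out 1 sample at a time, the list median ran from -0.91 without the first middle sample to -0.30 without the last middle sample. After the middle samples the list went on down, with a median of -1.73 from the middle to the samples at 407.97 to 423.27 degrees.

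Some polymerase factors and regulators were highest at 369.70 degrees, 5 min before the median of the assembly genes. The assembly genes UTP5, NOG2 and MAK16 were highest at 369.70 degrees too. Relative to the samples before, the median of the polymerase genes was itself highest at 377.35 degrees (1.41, against 1.31 at 369.70 degrees). RRN11, a subunit of the core factor that places RNA polymerase I on ribosomal DNA, had 1179, 654 and 508 in the middle samples, against 3708, 4085 and 1988 in the early samples (difference -2.09, SE 0.39, limma adjusted p = 0.0656). RPC37, a subunit of RNA polymerase III, had 2385, 1564 and 1234, against 3426, 4929 and 3736. IFH1, the coactivator of ribosomal protein genes, had 2389, 1391 and 1149, against 3993, 6306 and 4442 (difference -1.62, SE 0.31). These 3 genes were highest at 369.70 degrees and non-overlapping, whereas the median of the 35 RNA polymerase I and III genes was -0.29 (-0.15 without the last middle sample). Of the 35, 4 were lower and 3 higher without overlap (11.4% and 8.6%, against 11.7% and 16.3% of all probe sets). Of 33 genes for modifying transfer and ribosomal RNA, 19 fell and 1 rose in the all-sample fit, where 20.5% of all probe sets fell and 26.4% rose. Only 2 were lower without overlap and 1 higher (6.1% and 3.0%, against 11.7% and 16.3% of all probe sets). The list median was -0.47 (-0.25 without the last middle sample and -0.75 without the first early sample). TRM5, a transfer RNA methyltransferase, had 1466, 1107 and 717, against 2374, 3946 and 2913.

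Genes of the ribosome's own proteins had a smaller median difference than the assembly factors. Relative to the samples before, their median was 0.03, 0.46 and 0.72 in the early samples in time order. In the middle samples it was 0.60, 0.49 and 0.28, so it too was highest at 377.35 degrees. The 128 cytosolic ribosomal protein genes had a median of 0.04, 1 higher and 1 lower without overlap, and 2 fell in the all-sample fit. RPL22B, the member with the largest difference, had 9736, 7207 and 5566 in the middle samples, against 8131, 12543 and 13432 in the early samples (difference -0.60, SE 0.28). The 19 cytosolic aminoacyl-tRNA synthetase genes had a median of 0.11 and the 33 translation factor genes 0.01, and none of either list was non-overlapping or passed in either fit. TYS1, the tyrosyl-tRNA synthetase, had 13567, 11024 and 9954, against 6515, 10434 and 13561, with its highest signal of the series at 385.00 degrees. The 66 amino acid synthesis genes had a median of 0.04, with 3 lower and 1 higher without overlap, and the largest difference among them was that of ARO9, a catabolic aminotransferase. The differences of these lists were small between the groups, although all of them stood above the samples before, by 0.41 for ribosomal proteins and 0.74 for translation factors at the median. The sign of these 4 medians was not stable: without the first early sample they were -0.16 for ribosomal proteins, -0.15 for synthetases, -0.25 for translation factors and -0.20 for amino acid synthesis, and whole-table scaling also put them below 0.

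**Figure D4:**
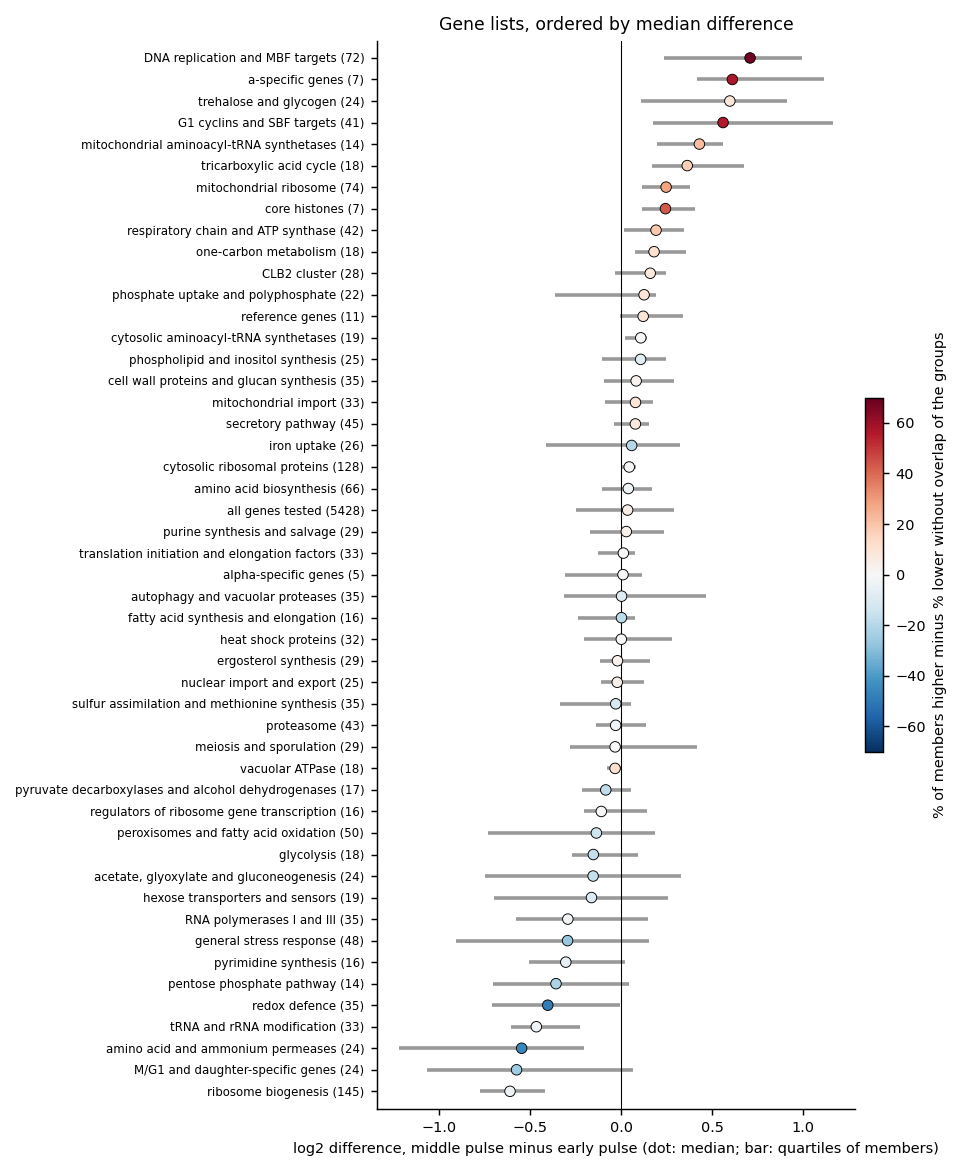
Median log2 difference (dot) and quartiles (bar) of the members of 48 gene lists and of all tested genes, middle minus early, with the number of genes in brackets. The colour gives the percentage of members higher minus the percentage lower without overlap, and DNA replication and MBF targets stand at the top with 0.71 and ribosome biogenesis at the bottom with -0.61.

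Genes of daughter cells and cell separation went the other way from the G1/S genes. Of 24 genes of the M/G1 boundary and of daughter cells, 8 were lower and 2 higher without overlap (33.3% and 8.3%, against 11.7% and 16.3% of all probe sets). Their median was -0.57 (-0.37 without the last middle sample), and in the all-sample fit 13 fell and 4 rose. DSE4, a glucanase that cuts the wall between mother and daughter, had 2346, 1111 and 609 in the middle samples, against 5026, 10799 and 4993 in the early samples (difference -2.47, SE 0.53). SCW11, a glucanase of the same kind, had 2349, 1458 and 971, against 3873, 10521 and 5992 (difference -2.07, SE 0.44), and EGT2, a cell wall protein of separation, had 2380.4, 1299 and 811, against 3875, 8081 and 5485. All 3 genes had a high at 369.70 degrees inside the early group and descended through the middle samples. CTS1, the chitinase of separation, overlapped, with 12400, 10491 and 7287, against 8452, 12977 and 15764. The 2 higher members were SST2, which switches off the pheromone signal, with 2269, 2619 and 1802, against 518, 719 and 1339.9, and the transcription factor gene TEC1.

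Most G1/S genes were higher in the middle samples. The median of the G1 cyclin and SBF list already climbed inside the early group. Relative to the samples before, it was 0.10, 0.54 and 0.95 in the early samples in time order. In the middle samples it was 0.94, 1.22 and 1.08. Of 41 G1 cyclin and SBF target genes, 23 were higher and none lower without overlap (56.1% higher, against 16.3% of all probe sets). In the all-sample fit 27 rose and 1 fell. SWI4, the DNA-binding subunit of SBF, had 776, 1157 and 1224 in the middle samples, against 518, 293 and 236 in the early samples (difference 1.65, SE 0.33, limma adjusted p = 0.066). Its lowest signal of all 49 samples was in the last early sample and its highest in the last middle one. CLN1, a G1 cyclin, had 2694, 3789 and 3970.2, against 854, 1233 and 1814 (difference 1.47, SE 0.30), and CLN2, its partner, had 3070.2, 4174 and 3816, against 1770.4, 1979 and 2639 (difference 0.80, SE 0.21). CLN3, the upstream G1 cyclin, did not part: 3875, 4129 and 3226 in the middle samples, against 3190.1, 4079 and 4077 in the early samples (difference -0.01, SE 0.18). PCL1, a cyclin of the kinase Pho85, had 3599.8, 3896 and 3981, against 1183, 1526 and 2746. TOS2, which acts at the bud neck, had 890.5, 1228 and 1382, against 292, 265 and 582 (difference 1.69, SE 0.33), and AXL2, which marks the axial bud site, had 2218, 3454 and 4085, against 1181, 854 and 1370.2. YOX1, a repressor of M/G1 genes, had 3099, 4222 and 4049.9, against 922, 1681 and 2553.

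Of 72 DNA replication and MBF target genes, 50 were higher and 1 lower without overlap. That is 69.4% and 1.4%, against 16.3% and 11.7% of all probe sets. Of the 50, 16 were higher by at least 2-fold, and in the all-sample fit 53 rose and 1 fell. CLB6, an S phase cyclin, had 1134, 2052 and 1785 in the middle samples, against 419, 513 and 631 in the early samples (difference 1.65, SE 0.27, limma adjusted p = 0.0656). CLB5, its partner, had 1845, 2032 and 2238, against 904, 974 and 1199 (difference 1.00, SE 0.17). CDC45, which joins the replicative helicase at origins, had 1391, 1796 and 1971, against 649, 433 and 813 (difference 1.48, SE 0.27). In each of these 3 genes the lowest middle value lay well clear of the highest early value. POL1, the catalytic subunit of DNA polymerase alpha, had 4114, 5325 and 5797 in the middle samples, against 2391, 2099.9 and 2695. POL30, the sliding clamp PCNA, had 7260.2, 8266 and 8473, against 3522, 3617 and 5137. RNR1, the large subunit of ribonucleotide reductase, had 8163, 10625 and 10033, against 3264, 3848 and 6927, and CDC21, thymidylate synthase, had 1787, 2409 and 3061, against 1194, 818 and 1032. Differences for these 4 genes lay between 0.99 and 1.24. The cohesin gene MCD1 had 2526, 2897 and 4193, against 842, 1279 and 1746, and PDS5, a cohesin regulator, had 3051, 3865 and 4993, against 2073, 1351 and 1384. The checkpoint kinase genes DUN1 and RAD53 differed by 1.49 (SE 0.22) and 1.33 (SE 0.24), both without overlap.

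The MCM genes, which encode the helicase loaded at origins, differed less. MCM2 had 3756, 5081 and 3505 in the middle samples, against 2294, 2974 and 3982 in the early samples, and MCM3 had 4641, 4911 and 3881, against 3428, 4353 and 4417, so the groups overlapped for both genes. MCM7 was non-overlapping, with 4150, 4690.4 and 3614, against 2537, 2324 and 3133 (difference 0.64, SE 0.18). Of 7 core histone genes, which peak in S phase, 3 were higher and none lower without overlap (42.9% higher, against 16.3% of all probe sets), and 3 rose in the all-sample fit. Their median of 0.24 was 0.10 without the first early sample and 0.08 with whole-table scaling. HTA1 had 13998, 14805 and 15132 in the middle samples, against 13098, 15066 and 16840, and HHT2 had 8777, 9738 and 12261, against 6584, 7051 and 6184, the largest difference of the list at 0.62. The mitotic cyclin gene CLB2 was higher without overlap, with 280.3, 373 and 369, against 205, 157 and 225 (difference 0.81, SE 0.20).

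Several genes of mating were higher in the middle samples. The 7 a-specific genes had a median of 0.61, all above 0, and without the first early sample the median was 0.33. Of the 7, 4 were higher without overlap (57.1%, against 16.3% of all probe sets) and 5 rose in the all-sample fit. No list of pheromone response genes was used, and the genes of that pathway named here were chosen after their values were seen. FUS1, needed for cell fusion, had 2908, 3588 and 2677 in the middle samples, against 511, 731 and 1643 in the early samples (difference 1.84, SE 0.41, limma adjusted p = 0.0752). FUS2, which acts in the same fusion, had 1142, 1389.8 and 1208, against 469, 283 and 561 (difference 1.56, SE 0.27). AGA2, the adhesion subunit of a-agglutinin, had 9629, 10200 and 11271, against 3807, 4009.8 and 6850.2, and its anchor AGA1 had 8272, 9882 and 8622, against 2007, 3284 and 6029. BAR1, the protease that degrades alpha factor, had 7549, 8422 and 7010, against 2433, 3307 and 5759. In these 5 genes the last early sample was the highest of its group, and the lowest middle value was above it. STE2, the alpha factor receptor, overlapped, with 13957, 14839 and 12952 in the middle samples, against 5899, 9313 and 13739. FUS3, the kinase of the pheromone pathway, overlapped as well, with 5388, 5357 and 4641, against 2511, 4232 and 5311 (difference 0.42, SE 0.28, limma adjusted p = 0.408). FAR1, which arrests the cycle in response to pheromone, had 3437, 3914 and 2889, against 2069.8, 2569 and 3277, also with overlap (difference 0.39, SE 0.22). MFA1 and MFA2, which encode the a-factor itself, differed by 0.28 and 0.28. The list of 5 alpha-specific genes had a median of 0.01, with none non-overlapping.

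**Figure D5:**
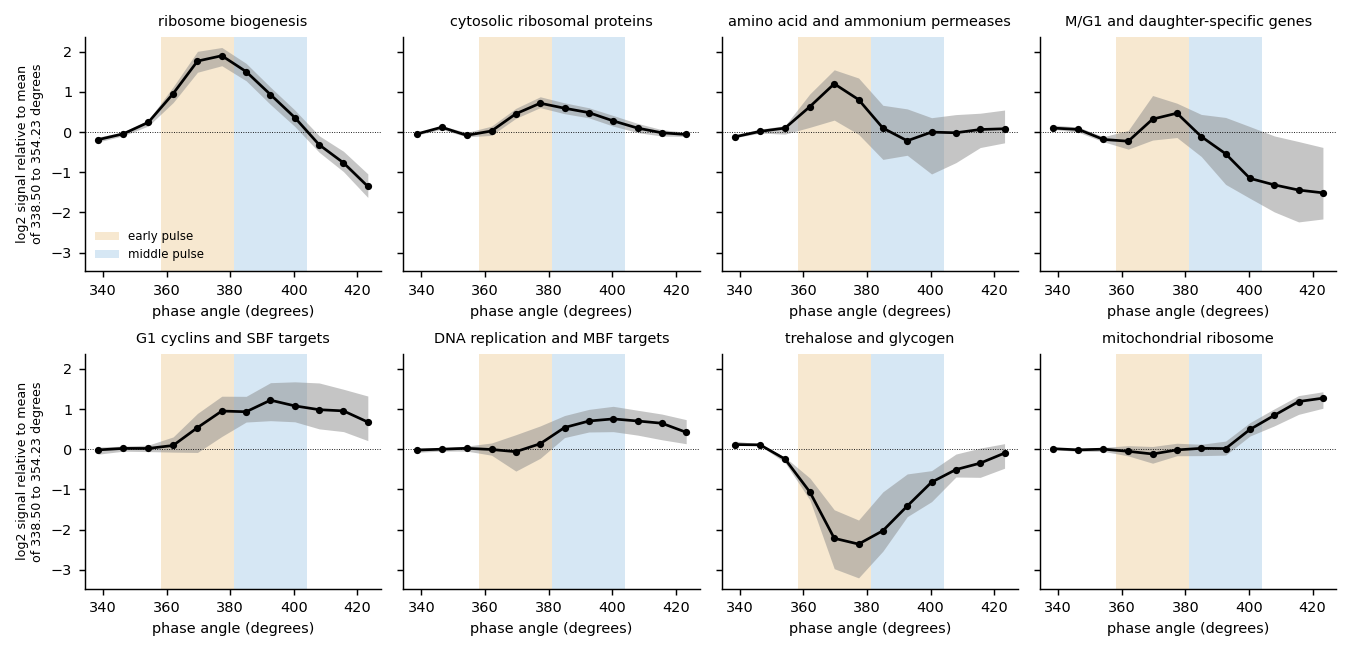
Median (line) and quartiles (grey band) of the members of 8 gene lists, as log2 signal relative to the mean of the samples at 338.50 to 354.23 degrees, against phase angle, with early samples shaded orange and middle samples blue. Ribosome biogenesis stands at 1.90 at 377.35 degrees and -1.35 at 423.27 degrees, DNA replication and MBF targets reach 0.76 at 400.31 degrees, trehalose and glycogen genes pass a low of -2.36 at 377.35 degrees, and the mitochondrial ribosome leaves 0 only at 400.31 degrees, at 0.49.

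Single genes of respiratory growth had a low in the early samples and stood higher in the middle ones, and those of this paragraph were named for the size of their difference or after their values were seen. RGI1, a gene induced in respiratory growth, had 1376, 2776 and 5340.3 in the middle samples, against 707, 458 and 809 in the early samples (difference 2.09, SE 0.49, limma adjusted p = 0.0756). ZNF1, a zinc cluster regulator of respiratory growth genes, had 159, 246 and 253, against 105, 19.2 and 41.3 (difference 2.30, SE 0.58). This was the largest gain among non-overlapping genes with a gene name and a middle mean of at least 200. Both genes had their lowest signal of the series at 369.70 degrees, and their middle samples ascended in time order. NDI1, the internal NADH dehydrogenase of mitochondria, had 3358, 6771 and 9739.8 in the middle samples, against 2898, 1844 and 1565 (difference 1.58, SE 0.42). NDE2, an external NADH dehydrogenase, was the opposite, with 497, 609 and 884, against 5236, 2594 and 976 (difference -1.88, SE 0.58). HAP4, the activating subunit of the regulator of respiratory genes, had 7968, 9314 and 9520.2, against 4023, 1658 and 6544, with its lowest signal of the series at 369.70 degrees and a return within 5 min. ROX1, the repressor of hypoxic genes, had 1938, 2351 and 2468, against 7095, 6507 and 2861.

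Of 18 citric acid cycle genes, 4 were higher and 1 lower without overlap (22.2% and 5.6%, against 16.3% and 11.7% of all probe sets). Their median was 0.36, and in the all-sample fit 10 rose and 2 fell. The median was 0.17 without the last middle sample, 0.22 without the last early sample, 0.55 without the first early sample and 0.68 without the first middle sample, and 0.20 with whole-table scaling. IDH2 and IDH1 encode the subunits of isocitrate dehydrogenase. IDH2 had 11668, 13854 and 14083 in the middle samples, against 5425, 3598 and 4529.8 in the early samples (difference 1.56, SE 0.19, limma adjusted p = 0.0656). IDH1 had 7765, 11376 and 13598, against 5805, 3946 and 4134 (difference 1.22, SE 0.26). MDH1, mitochondrial malate dehydrogenase, had 6667, 11629 and 13471, against 5357, 3213 and 4259.5. For all 3 genes the low was at 369.70 degrees, and IDH2 reached its new level already at 385.00 degrees. Of 42 respiratory chain and ATP synthase genes, 9 were higher and 1 lower without overlap, with a median of 0.19, and in the all-sample fit 15 rose and 3 fell. The 21.4% higher lay near the 16.3% of all probe sets, and the median was 0.03 with whole-table scaling and 0.12 without the last middle sample. CYC1, cytochrome c, had 8396, 11673 and 12185 in the middle samples, against 5750.5, 5286 and 6494 (difference 0.87, SE 0.19), and COR1, a subunit of the cytochrome bc1 complex, had 6296, 8539.7 and 10167, against 6116, 5073 and 4637. COX5A, a cytochrome oxidase subunit, overlapped, with 9626, 10999 and 10948, against 8298, 8891 and 10012.

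Mitochondrial translation genes were higher mainly in the last middle sample. The 74 mitochondrial ribosome genes had a median of 0.25, with 21 higher and none lower without overlap, none of them by 2-fold. That is 28.4% higher, against 16.3% of all probe sets, and 33 rose in the all-sample fit. Without the last middle sample the median was 0.08, and with whole-table scaling 0.09. Their median relative to the samples before was 0.02 at 385.00 and at 392.66 degrees and 0.49 at 400.31 degrees, and it was 1.27 at 423.27 degrees. MRPS17, the member with the largest difference, had 1840.1, 1567 and 2708 in the middle samples, against 1227, 1182 and 1528 in the early samples (difference 0.61, SE 0.24). PET123, a small subunit protein, had 1636, 1614 and 2691, against 1537, 1147 and 1374. RPM2, the protein subunit of mitochondrial RNase P, was earlier and larger, with 5372, 7772 and 10224 in the middle samples against 3149, 1617 and 2439.9 in the early samples (difference 1.70, SE 0.32). Of 14 mitochondrial aminoacyl-tRNA synthetase genes, 3 were higher without overlap, and this 21.4% lay near the 16.3% of all probe sets. In the all-sample fit 8 rose, where 26.4% of all probe sets did. The list median was 0.43 (0.26 without the last middle sample). MSF1, the phenylalanyl enzyme, had 286, 535 and 759, against 443, 194 and 147.

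Storage carbohydrate genes had a high median with few clean separations. The 24 trehalose and glycogen genes had a median of 0.60, but only 3 were higher and 1 lower without overlap. That is 12.5% and 4.2%, against 16.3% and 11.7% of all probe sets. In the all-sample fit 11 rose and 2 fell, where 26.4% of all probe sets rose and 20.5% fell. TPS1, trehalose-6-phosphate synthase, had 1441, 2902 and 4411 in the middle samples, against 3591, 955 and 816 in the early samples. GSY1, a glycogen synthase, had 184, 407 and 744, against 438, 99.6 and 109. In both genes the first early sample was still high, and it lay above the lowest middle sample. PCL8, a cyclin that acts in glycogen control, was non-overlapping, with 995, 1439 and 1398 in the middle samples, against 756, 408 and 530.0 (difference 1.21, SE 0.27). GPH1, glycogen phosphorylase, had 689, 1280.1 and 2839.7, against 5438, 2709 and 1015, so its mean was lower in the middle samples (difference -0.86, SE 0.71). Without the first early sample the list median was 1.02, without the last early sample 0.31 and without the last middle sample 0.29. The hexokinase gene HXK1 had 3242, 8585 and 10400 in the middle samples, against 7194, 1621 and 1912, and the glucose sensor gene SNF3 had 1237, 1693 and 1846, against 1245, 309.9 and 736, both overlapping through the first early sample.

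A few further genes with large gains lay outside the groups described so far. Among them, IMD2 and KAP122 had the largest differences of the purine and nuclear transport lists, whose counts follow below. IMD2, an IMP dehydrogenase of guanine nucleotide synthesis, had 400.0, 538 and 797 in the middle samples, against 98.8, 219 and 165 in the early samples (difference 1.86, SE 0.36, limma adjusted p = 0.0656). The related genes IMD3 and IMD4 did not part, with differences of 0.10 and -0.30, although near-identical copies in this family can share probe signal. HRP1, an RNA-binding subunit of the 3' end cleavage machinery, had 6855, 7728 and 6980.4, against 1619, 1706 and 4206 (difference 1.66, SE 0.37). SAP4, a partner of the phosphatase Sit4, had 158, 248 and 373, against 68.6, 46.5 and 78.5 (difference 1.95, SE 0.35). KAP122, an importin, had 2157, 2387 and 1959, against 768, 864 and 1493. AIM33 and ISF1, for which no role is given here, had 733, 1387 and 2512 and 3053, 5749 and 6975 in the middle samples, against 388, 310.1 and 359.8 and 2131, 748 and 1692 in the early samples, both lowest of the series at 369.70 degrees.

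The counts without overlap of the remaining gene lists are read against the 16.3% higher and 11.7% lower of all probe sets. Of 35 genes for sulfur assimilation and methionine synthesis, none was higher and 4 were lower without overlap (median -0.03), with MUP1 the farthest. Of 29 purine genes 3 were higher and 2 lower (median 0.03), of 16 pyrimidine genes 1 was higher and 2 lower (median -0.30, and -0.11 without the last middle sample), and of 18 one-carbon genes 4 were higher and 2 lower (median 0.18, and -0.05 without the first early sample). BAS1, the activator of purine genes, was among the lower ones, with 3239, 2069.7 and 1552 in the middle samples against 4449, 4996 and 4536 in the early samples. YNK1, the nucleoside diphosphate kinase, was the farthest pyrimidine gene, with 4428, 7451 and 9443, against 4409, 2191 and 2702 (difference 1.19, SE 0.36). Of 16 regulators of ribosome genes and of 25 nuclear transport genes, 2 and 3 were higher and 2 and 2 lower (medians -0.11 and -0.02). Of 28 genes of the mitotic CLB2 cluster 7 were higher and 5 lower (median 0.16).

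Protein quality control showed no common direction. Of 32 heat shock genes 4 were higher and 4 lower without overlap (median 0.00), of 43 proteasome genes 4 were higher and 5 lower (median -0.03), and of 35 autophagy and vacuolar protease genes 3 were higher and 6 lower (median 0.00). SSA3, an Hsp70 chaperone of starved and stressed cells, had 2028, 1848 and 1601 in the middle samples, against 11195, 6217 and 3212 in the early samples (difference -1.74, SE 0.42). BLM10, a proteasome activator, had 2429, 2312 and 2049, against 4249.5, 3657 and 2804 (difference -0.64, SE 0.19). ATG34, a receptor of selective autophagy, overlapped, with 382, 541 and 843, against 2834, 1369 and 659.5. The farthest of 33 mitochondrial import genes (5 higher, 2 lower, median 0.08) was MIA40, the import oxidoreductase of the intermembrane space, with 2216, 2606 and 4377 in the middle samples, against 2469.9, 1447 and 1455.

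Among carbon genes, 18 glycolysis genes had 1 higher and 4 lower without overlap (median -0.15). The 17 pyruvate decarboxylase and alcohol dehydrogenase genes had 1 higher and 4 lower (median -0.09), the 19 hexose transporters and sensors 2 higher and 4 lower (median -0.16, and 0.08 without the last middle sample) and the 14 pentose phosphate genes 1 higher and 4 lower (median -0.36, and -0.22 without the first middle sample). PGM2, a phosphoglucomutase on the way to storage sugars, had 1039, 2154 and 4322 in the middle samples, against 2404, 697 and 655 in the early samples, with an overlap through the first early sample. Among lipid genes, 29 ergosterol genes had 4 higher and 3 lower (median -0.02), 16 fatty acid genes none higher and 3 lower (median 0.00) and 25 phospholipid and inositol genes 1 higher and 3 lower (median 0.11). CYB5, cytochrome b5 of sterol synthesis, had 7061, 5899 and 5029 in the middle samples, against 10463, 12799 and 10665 (difference -0.92, SE 0.18). ELO1, a fatty acid elongase, had 2907, 4909 and 4975, against 3341, 2524 and 1826, and GPT2, an acyltransferase of phospholipid synthesis, had 1783, 2036 and 3020.5, against 2733, 629.5 and 755, both overlapping.

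For the cell surface and compartments, 45 secretory genes had 5 higher and 2 lower without overlap (median 0.08), 35 cell wall genes 3 higher and 2 lower (median 0.08) and 18 vacuolar ATPase genes 3 higher and 1 lower (median -0.03). SEC2, the exchange factor that starts vesicle docking, had 623, 646 and 745 in the middle samples, against 492, 235 and 372 in the early samples (difference 0.93, SE 0.27). SUN4, a cell wall glucanase-related protein, had 4518, 3762 and 1986, against 4346, 9293 and 9047, with the first early sample inside the middle range. STV1, the Golgi form of the ATPase's membrane subunit, had 2421, 3052 and 3241, against 2166, 1765 and 1902 (difference 0.57, SE 0.17). Of 22 phosphate genes 6 were higher and 4 lower (median 0.13), and of 26 iron uptake genes 2 were higher and 7 lower (median 0.06). FIT2, a wall mannoprotein that holds iron carriers, had 853, 730.4 and 507 in the middle samples, against 1373, 1329 and 1082. Of 29 meiosis and sporulation genes 3 were higher and 3 lower (median -0.03), with SPS100, a spore wall gene, farthest at 964, 723 and 428 in the middle samples, against 3408, 2663 and 1780.5. Of 11 genes often used as references 1 was higher and none lower (median 0.12), and the farthest, TFC1, a subunit of an RNA polymerase III factor, had 1140.1, 982 and 1340.2, against 1096, 749.9 and 753. The farthest alpha-specific gene was HMLALPHA1, at the level of other-species probe sets.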

How the data were processed

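Each of the 49 samples of a continuous culture was hybridised to its own Affymetrix Yeast Genome 2.0 array. Per the submitters' processing notes, the authors used the Affymetrix program GCOS. The deposited intensity of a probe set is its GCOS signal, linear and not logged. The GCOS version is not given in the sources used here.

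Of 10928 probe sets, 5498 (5449 genes) carry 1 S. cerevisiae gene in the platform annotation. Those with a median signal above 11.2, the 75th percentile of the medians of other-species probe sets, were tested: 5470 (5428 genes), with 28 removed. Their median signal was 1881.8, against 6.2 for other-species probe sets. Each array was multiplied so that the tested probe sets had the same median, a floor of 1 was applied and log2 values were used. Of the probe sets of 1 gene, the brightest stood for it in the lists (41 genes had several). Probes follow a reference sequence, and variants in CEN.PK can dim a probe. Precision is limited by the number of arrays.

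The labels' phase angle set the groups. Middle and early samples were compared with limma 3.58.1 in R 4.3.3 (lmFit, eBayes, Benjamini-Hochberg over 5470 probe sets, threshold 0.05). Tested on simulated data for the comparison of middle with early samples (5470 probe sets), it recovered 14% of probe sets changed 1.5-fold, 38% at 2-fold, 80% at 3-fold and 86% at 4-fold, 50 of each, and called 4 unchanged ones. The simulated noise was independent between samples, with no drift through a group, and the changed probe sets were drawn at random. These shares therefore do not give the recovery in the real samples. Array checks used exact permutation tests. Python 3.11.15 with numpy 2.4.6, pandas 2.3.3, scipy 1.17.1 and matplotlib 3.10.9 did the rest. Alternatives changed the scaling, the offset, the filter, the samples, the spread, the array number as a covariate and the eBayes settings.

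The samples and the 48 gene lists were chosen with earlier results of these data known. The rule for named genes asked for the 12 largest gains and the 12 largest losses. It took them among called, non-overlapping genes with a gene name and a higher group mean of at least 200. The test called 1 probe set, below that level, so the 12 and 12 were taken without the condition of being called, after the values were seen. For each list the rule gave the member with the largest difference. The other genes named, the enzyme pairs and the classes of courses were chosen after their values were seen. No promoter or protein sequences were used here, so the planned description of promoter motifs was not made.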

Additional observations from a re-analysis of the deposited data

How the results depend on the processing

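The small number of probe sets passing limma with 6 samples was the least stable result. Against 1 probe set (1 higher, 0 lower), limma gave none with deposited signals, with quantile normalization, with 16 added before log2, with no filter, with the array number as a covariate, with an intensity trend and with robust estimation (0 higher and 0 lower in each). It gave 172 with the median over the whole table (12 higher, 160 lower), 148 without both samples at the boundary (59 higher, 89 lower), 157 with a linear change with phase angle (72 higher, 85 lower) and 2567 with the spread of all samples in groups of 3 (1444 higher, 1123 lower). Leaving out 1 sample at a time gave 0 to 264 (0 to 125 higher, 0 to 139 lower), and the 264 came without the early sample at 377.35 degrees and 3 without the one at 362.04 degrees. The causes of these shifts were not tested. Non-overlapping probe sets of at least 2-fold, 120 higher and 169 lower, numbered 88 to 269 higher and 150 to 314 lower with 1 sample left out. Fewer samples make overlap less likely by construction. Without the early sample at 362.04 degrees there were 269 higher and 269 lower, without the early sample at 377.35 degrees 270 lower, and without the middle sample at 385.00 degrees 204 higher and 314 lower. Without both boundary samples there were 234 higher and 346 lower, and with whole-table scaling 79 higher. The 24 genes with the largest gains and losses kept their sign under all alternatives run. They were picked as large and non-overlapping differences, so leaving out samples could not change a sign. Of these genes, 24 passed with the spread of all samples, 20 with the linear change and 19 without the boundary samples. Without the early sample at 377.35 degrees 17 passed, with whole-table scaling 16 and in the others none. No paired analysis was possible because the labels give the samples no replicate numbers.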

Other observations

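The HXT genes for hexose transporters, so far given only as part of a list, split within the family. HXT4, a transporter made when glucose is low, had 12531, 12166 and 7942 in the middle samples, against 6154, 7424 and 10979 in the early samples. Its signal went up through the early samples and down through the middle ones, and was 594 at 423.27 degrees. HXT1, a low-affinity transporter, had 86.6, 86.8 and 58.3 in the middle samples, against 135, 217 and 167, lower without overlap and at low signals. HXT5, which is made in slow growth, had 1928, 3446 and 4092, against 8378, 4851 and 2077, with overlapping groups. HXT2 and HXT3 differed by -0.40 and -0.32, also with overlap.

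The repressors of ribosome assembly genes, TOD6 and DOT6, parted in their courses. TOD6 had 4999, 3218 and 1653 in the middle samples, against 3023, 5345 and 6408 in the early samples, and 386 at 423.27 degrees. DOT6 had 3160.1, 3134 and 2648, against 3880.3, 3945 and 3586, lower without overlap by a smaller step (difference -0.36, SE 0.15). Sulfate reduction genes were high in both groups: MET3, ATP sulfurylase, had 16025, 14157 and 12049 in the middle samples, against 9092, 15007 and 18072, and MET16, which reduces activated sulfate, had 11444, 8696 and 7847, against 6575, 12684 and 15670.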
